A study of Homo sapiens with 15 samples.

Results

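The 35 genes described here are the zinc finger genes of the 19p12 cluster, a run of related genes on the short arm of human chromosome 19 next to the centromere. They were chosen by gene name from a table of 55773 names, and all 35 were found. Band borders were not checked, so the outermost members (ZNF101, ZNF14, ZNF506 and ZNF253) may lie outside 19p12. Ribosome footprints were sequenced from HEK293, an established human embryonic kidney cell line, in 15 libraries that form 5 groups of 3. They were cells overexpressing Flag/HA-tagged ZC3H7A, cells overexpressing Flag/HA-tagged ZC3H7B and a Flag/HA control, whose replicates are labelled as independent. Doxycycline (1 µg/mL, 24 h), which switched the tagged proteins on, is listed for these groups, the control included. The other 2 groups were named ZC3H7A/B-DD, with the genotype ZC3H7A-KO-shZC3H7B, and Parental, with the genotype Wild-type-shCTR. Both had been under puromycin at 5 µg/mL, taken off 2 passages before collection, and were lysed from frozen pellets in a buffer with cycloheximide at 100 µg/mL. ZC3H7A and ZC3H7B are related CCCH zinc finger proteins. Growth conditions are given for HEK293 and for Flp-In T-REx 293 cells, a derivative made for inducible transgenes, without saying which of them each group was, and the number of clones behind a line is not stated. Whether the ZC3H7A/B-DD and Parental replicates were separate cultures is not stated either, so their p-values measure a spread between libraries that may be only technical.

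Most genes of the cluster encode KRAB zinc finger proteins. The KRAB domain at the start of the protein binds TRIM28, a scaffold that brings in the histone methyltransferase SETDB1, heterochromatin proteins and deacetylases, and the row of C2H2 fingers behind it reads DNA. Such proteins are best known for silencing retroelements: ZNF91 represses SVA elements and ZNF93 represses LINE-1 elements. The cluster grew by repeated tandem duplication in primates, so its genes resemble each other closely.

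The likeness is visible in the coding sequence at the length of a ribosome footprint. The stretch below was the 28-base sequence shared by the most members: it occurred 149 times in 31 of the 34 members with a coding sequence in GENCODE release 29 (ZNF826P, a transcribed pseudogene, has none), and in 44 other genes. It belongs to the start of a C2H2 finger, and the capitals mark the codons of the pair of cysteines that hold the zinc ion.
Shared stretch: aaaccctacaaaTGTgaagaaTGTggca
A footprint with these letters has no single origin. A median of 41.5% of the 28-base stretches of a member's coding sequence also occurred in another gene, with 10.3% in ZNF14 at the low end and 82.6% in ZNF492 at the high end. Within the cluster the median was 33.2%, and the highest value was again that of ZNF492 (78.0%). Proteins translated from these sequences were compared in 561 pairs and had a median identity of 69.0%, between 22.6% and 97.9%. ZNF98 and its neighbour ZNF492 were the closest pair, at 97.9%. ZNF726 and ZNF254 were 80.3% identical, ZNF430 and ZNF100 80.7%, ZNF737 and ZNF66 81.3%, and ZNF729 and ZNF99 81.4%. ZNF208 was 82.1% identical to ZNF676 and 81.0% to ZNF728, and ZNF676 and ZNF728 were 80.2% identical. How the authors treated reads with several positions is not given in the sources used here, so values of these genes can hold reads of their copies.

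**Figure D1:**
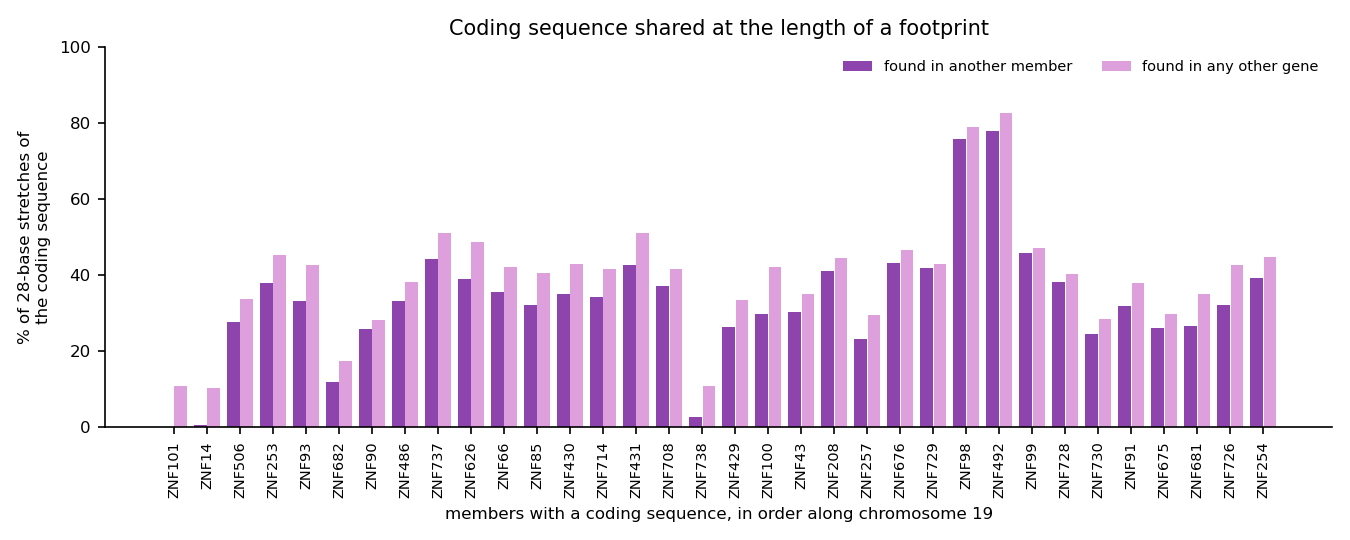
For each of the 34 members with a coding sequence, in order along the chromosome, bars give the percentage of its 28-base stretches that occur in another member (dark) or in any other gene (light). ZNF98 and ZNF492 stand highest (78.9% and 82.6% in any other gene), and ZNF101, ZNF14 and ZNF738 lowest (10.7%, 10.3% and 10.9%).

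The promoters also resemble each other. RefSeq (GRCh38.p14) entries from 250 bases before to 50 after a start were found for 26 of the 35 members. Those of 5 members are printed: ZNF43, ZNF85, ZNF726 and ZNF257, which of the members with an entry had the largest decreases in the libraries labelled ZC3H7A/B-DD against Parental, and ZNF430, which lies next to ZNF85 and had the largest increase there. Capitals mark the most frequent 16-base stretch of the members' promoters, ATCTTCTGTCACTCAG, searched on both strands.
ZNF43, chr19:21836133-21836432, minus strand: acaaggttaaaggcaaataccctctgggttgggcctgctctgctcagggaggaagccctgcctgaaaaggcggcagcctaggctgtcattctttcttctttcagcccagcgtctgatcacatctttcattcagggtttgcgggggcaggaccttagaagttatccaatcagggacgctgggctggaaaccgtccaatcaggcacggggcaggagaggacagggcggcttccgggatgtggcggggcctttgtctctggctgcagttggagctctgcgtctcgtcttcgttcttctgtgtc
ZNF85, chr19:20923001-20923300, plus strand: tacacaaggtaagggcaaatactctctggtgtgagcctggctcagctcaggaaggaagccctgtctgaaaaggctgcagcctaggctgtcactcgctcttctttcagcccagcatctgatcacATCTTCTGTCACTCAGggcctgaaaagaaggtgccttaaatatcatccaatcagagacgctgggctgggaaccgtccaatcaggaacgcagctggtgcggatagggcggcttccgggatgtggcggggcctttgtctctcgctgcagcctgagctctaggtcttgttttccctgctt
ZNF726, chr19:23914636-23914935, plus strand: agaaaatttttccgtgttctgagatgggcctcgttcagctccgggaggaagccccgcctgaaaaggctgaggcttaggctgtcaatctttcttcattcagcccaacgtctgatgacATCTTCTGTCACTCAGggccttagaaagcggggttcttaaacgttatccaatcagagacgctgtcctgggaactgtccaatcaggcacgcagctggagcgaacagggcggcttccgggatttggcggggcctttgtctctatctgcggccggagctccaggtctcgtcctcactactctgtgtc
ZNF257, chr19:22052234-22052533, plus strand: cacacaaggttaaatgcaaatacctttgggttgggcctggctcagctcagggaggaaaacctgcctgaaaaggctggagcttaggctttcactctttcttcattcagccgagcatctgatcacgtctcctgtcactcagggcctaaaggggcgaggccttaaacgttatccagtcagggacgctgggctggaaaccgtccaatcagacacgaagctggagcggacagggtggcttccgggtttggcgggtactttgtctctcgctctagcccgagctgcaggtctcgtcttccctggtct
ZNF430, chr19:21020407-21020706, plus strand: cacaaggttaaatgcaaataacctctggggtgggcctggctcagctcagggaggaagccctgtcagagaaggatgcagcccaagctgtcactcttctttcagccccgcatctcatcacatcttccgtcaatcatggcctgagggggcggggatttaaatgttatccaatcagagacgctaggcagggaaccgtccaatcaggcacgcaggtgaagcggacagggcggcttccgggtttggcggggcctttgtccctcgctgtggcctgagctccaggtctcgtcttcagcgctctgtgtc
The marked stretch stood in 13 of the 26 members' promoters and in 1 of those of 27279 other genes, which makes 0.0513% of all promoters. It was picked for its count among the members. Its first base lay 98 to 135 bases before the start. The ZNF43 entry lies inside the gene's GENCODE span (21804949 to 21852125, minus strand), so it belongs to an internal start. The outermost GENCODE start of ZNF43 was not searched.

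Libraries held 24703005 to 25922138 assigned reads with ZC3H7A, 22661812 to 25939425 with ZC3H7B, 28261810 to 29515572 in the Flag/HA control, 20777204 to 42680589 in the libraries labelled ZC3H7A/B-DD and 32955833 to 39064072 in Parental. Values are normalized counts: the reads of a gene after division by the library's size factor, so that 1 read was worth 0.778 to 1.58. ZC3H7A stood at 38044 ± 562 normalized counts in its overexpressing line, against 6547 ± 52.6 in the Flag/HA control, and ZC3H7B at 27885 ± 927 in its own, against 2152 ± 71.8 in the control (SD, n = 3 each). The libraries labelled ZC3H7A/B-DD did not have less of either gene. ZC3H7A had 7116, 1890.3 and 5066 normalized counts there, against 1885, 1819.9 and 2311 in Parental, and ZC3H7B had 3948, 2399 and 2969, against 2479, 2321 and 2609. Directions below for that line therefore belong to the libraries so labelled. Parental replicate 3 stood apart from the other 2 Parental libraries over all genes, and results without it are given with that comparison. All 9 marker genes of HEK293 cells averaged 10 or more normalized counts over the 15 libraries, as did 2 of 6 fibroblast markers. Among blood genes, the globin gene HBB averaged 230.3 with ZC3H7A, 341 with ZC3H7B and 687 in the Flag/HA control, and 126 in the libraries labelled ZC3H7A/B-DD and 130.2 in Parental, while the leukocyte marker PTPRC averaged at most 7.92 in any group. Fibroblast markers summed to 154 to 169, 155 to 195 and 107 to 139 in the Flag/HA groups in that order, and to 394 to 497 in the libraries labelled ZC3H7A/B-DD and 575 to 759 in Parental. The part of these markers in the results was not tested. A footprint count reflects both how much mRNA there is and how often it is translated, and these were not separated here. In a bulk lysate fewer expressing cells and less RNA per cell cannot be told apart. Each construct had its own line, so a difference between lines and a response to the protein cannot be told apart either.

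Together the 35 members took a small share of each library. It was 0.0218% ± 0.00110 of reads with ZC3H7A, 0.0177% ± 0.000669 with ZC3H7B and 0.0187% ± 0.000784 in the Flag/HA control. It was 0.00969% ± 0.00108 in the libraries labelled ZC3H7A/B-DD and 0.0104% ± 0.000373 in Parental. A mean of 10 normalized counts or more was reached by 16 members in all 5 groups, by 9 in some groups and by 10 in none. Those 10 were ZNF93, ZNF208, ZNF486, ZNF626, ZNF728, ZNF729, ZNF730, ZNF738, ZNF98 and ZNF99, with 6 to 31 reads each over all 15 libraries and no value above 7.11. ZNF208 and ZNF729, 2 of the members with the most fingers (36 and 34 matches to the C2H2 pattern, beside a median of 13), were among these scarcely read genes, while ZNF91 with 31 was well read.

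Per kilobase of coding sequence ZNF714, ZNF100 and ZNF101 were the top 3 in every group. ZNF714 averaged 690.2 ± 24.3 normalized counts per kilobase in the Flag/HA control and 265 ± 18.5 in Parental, the highest level of either group, and it also led with ZC3H7A (775 ± 72.3) and with ZC3H7B (631 ± 40.5). In the libraries labelled ZC3H7A/B-DD ZNF100 led at 247 ± 54.5 per kilobase, within its spread of ZNF714 at 193 ± 19.2. ZNF100 and ZNF101 followed, with 472 ± 9.97 and 416 ± 34.4 in the Flag/HA control and 229 ± 6.84 and 211 ± 23.8 in Parental, where these neighbours in the order lay within their SDs of each other. ZNF431 and ZNF675 were also within their spread of each other in the Flag/HA control (290.4 ± 26.2 and 281 ± 4.83 per kilobase). ZNF254 had rank 4 with ZC3H7A, at 308 ± 4.81 per kilobase, and rank 10 in the Flag/HA control, at 138 ± 14.7. The Flag/HA libraries and the others were made by different protocols, so levels are compared only within each set.

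**Figure D2:**
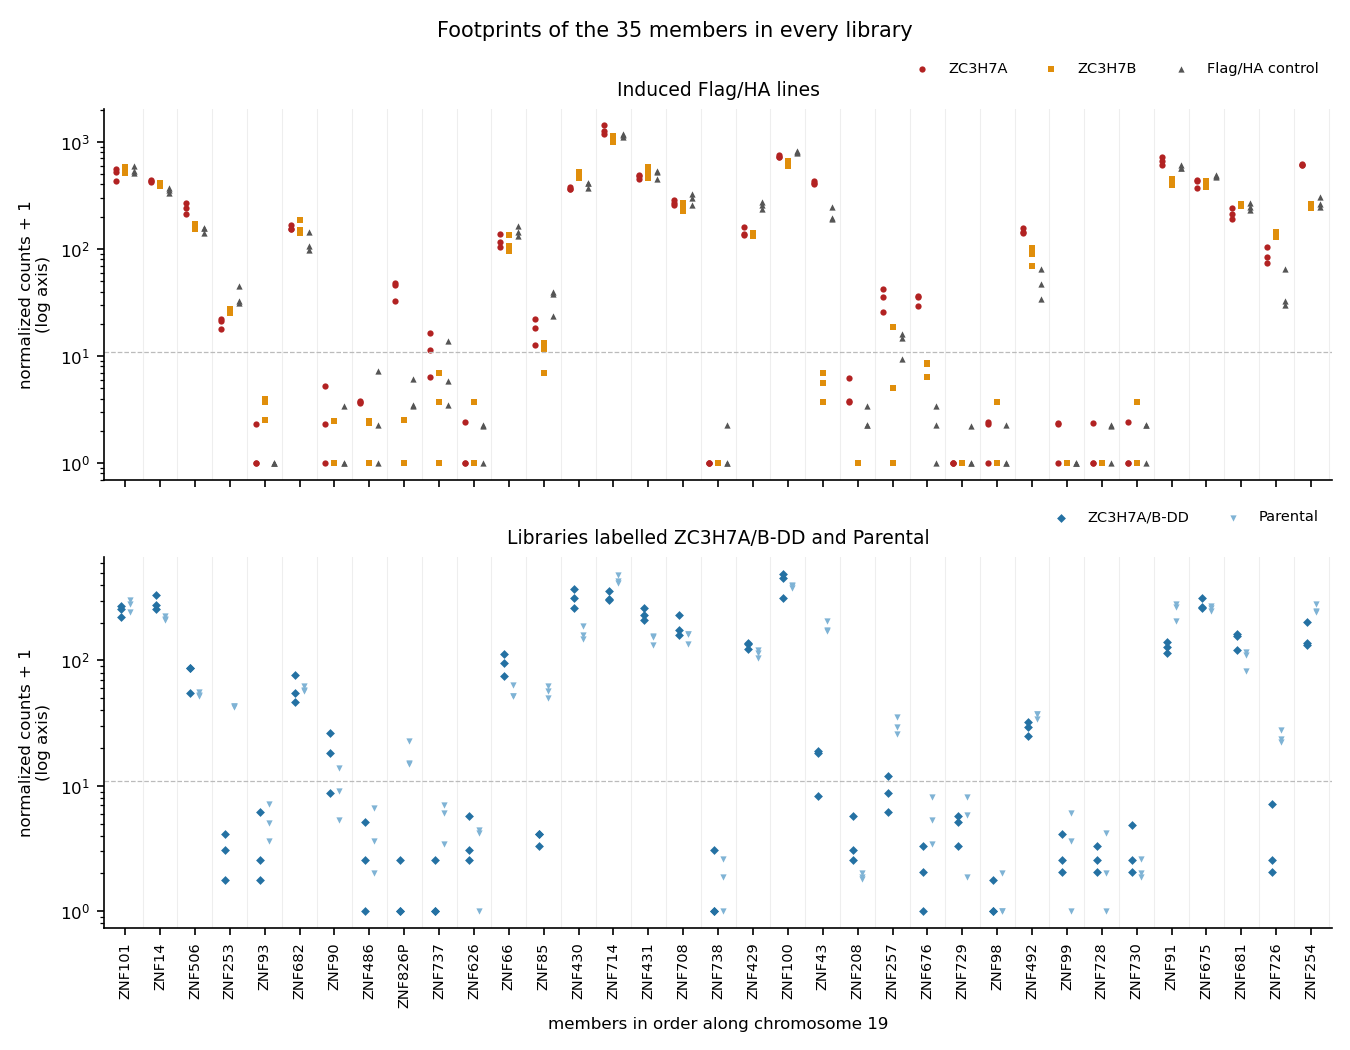
Normalized counts plus 1 of each of the 35 members in every library, on a log axis, with the Flag/HA lines above and the libraries labelled ZC3H7A/B-DD and Parental below; each point is 1 library, and the dashed line marks a value of 10. ZNF43 lies at 2.68 to 5.87 with ZC3H7B, below the line, against 191 to 243 in the Flag/HA control, and at 7.34 to 17.9 in the libraries labelled ZC3H7A/B-DD, against 169.7 to 205 in Parental.

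The comparison of ZC3H7A overexpression with the Flag/HA control asked which members differed in cells with more ZC3H7A. ZNF676, ZNF826P, ZNF492, ZNF254, ZNF726 and ZNF43 were higher by about a doubling or more, and ZNF429, ZNF85 and ZNF253 were lower. The filter, 10 or more normalized counts in at least 3 of the 9 libraries, was passed by 24 members, and ZNF676 and ZNF826P passed it through the ZC3H7A libraries alone. By limma on log2(value + 1), with Benjamini-Hochberg adjustment over all genes and a threshold of 0.05, 10 of the 24 were higher and 4 were lower. Of all 15599 genes tested, 57.5% were called, 29.2% higher and 28.2% lower, so the share of members called (58.3%) was near the background. The libraries of both groups did not overlap for 16 of the 24, beside 63.9% of all genes. A call of at least 2-fold was reached by 5 of the 24, beside 8.67% of all genes, but ZNF676 and ZNF826P are among the 5 and could pass the filter only by being high with ZC3H7A, so nothing is read from this count. Both are also among the 10 called higher and the 16 that did not overlap, and nothing is read from the direction of the calls. The members' median log2 change was 0.17, beside 0.02 over all genes tested.

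ZNF676 had 28.1, 34.9 and 35.2 normalized counts with ZC3H7A, against 0, 2.39 and 1.26 in the Flag/HA control. These were 73 and 3 reads, a ratio of 26.4 with a 95% counting interval of 8.69 to 131 (log2 change 4.09, SE 0.55, limma adjusted p = 8.31e-07). The gene was close to absent in the control and plainly read in all 3 ZC3H7A libraries. ZNF826P, the pseudogene, had 45.5, 47.5 and 31.3 with ZC3H7A and 5.06, 2.39 and 2.51 in the control (log2 change 3.33, SE 0.60, limma adjusted p = 5.15e-05). Its libraries did not overlap. ZNF492 stood at 143, 141 and 155 with ZC3H7A and at 45.6, 63.4 and 32.7 in the control, a log2 change of 1.66 (SE 0.21, limma adjusted p = 4.79e-07). ZNF98, its near-identical neighbour, had 2 reads with ZC3H7A and 1 in the control.

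ZNF254 was among the well-read members that rose, with 620.0, 608 and 601 normalized counts with ZC3H7A and 248, 263 and 304 in the control (log2 change 1.17, SE 0.10, limma adjusted p = 3.64e-10). ZNF726, its neighbour and close relative, had 104, 82.4 and 73.0 with ZC3H7A and 31.6, 63.4 and 28.9 in the control (log2 change 1.12, SE 0.24, limma adjusted p = 0.000268). The highest control library of ZNF726 came close to the lowest ZC3H7A library. ZNF43 had 402, 433 and 408 with ZC3H7A and 194, 191 and 243 in the control (log2 change 0.99, SE 0.21, limma adjusted p = 0.000327). ZNF506 had 212, 242 and 266, against 157, 139 and 157 in the control (log2 change 0.66, limma adjusted p = 0.000103), and ZNF682 had 153, 168 and 151, against 96.2, 106 and 142 (0.47, limma adjusted p = 0.0143). In both, every ZC3H7A library lay above every control library, but the call of ZNF682 was lost with quantile scaling, in 1 fit of all libraries, with DESeq2 and without ZC3H7A replicate 2 or control replicate 1 or 2. The other called members, ZNF14 (432 ± 10.8 against 351 ± 20.5, log2 change 0.30) and ZNF714 (1291 ± 120.4 against 1149 ± 40.5, log2 change 0.16), were higher by less. The call of ZNF714 was lost without a filter, with TMM or quantile scaling, array weights, 1 fit of all libraries or DESeq2, and without ZC3H7A replicate 3 or any one control library. ZNF91 was not called, at 601, 658 and 725 with ZC3H7A and 572, 571 and 605 in the control (log2 change 0.18, limma adjusted p = 0.0685).

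ZNF429 had 134, 161 and 137 normalized counts with ZC3H7A and 256, 276 and 234 in the control (log2 change -0.82, SE 0.13, limma adjusted p = 7.27e-06). It was the firmest decrease. ZNF85 had 17.4, 21.0 and 11.7, against 36.7, 22.7 and 39.0 in the control (log2 change -0.93, limma adjusted p = 0.0436). ZNF253 had 20.1, 21.0 and 17.0, against 31.6, 44.3 and 30.2 (log2 change -0.82, limma adjusted p = 0.0202). ZNF675, known to interact with the signalling adaptor TRAF6, had 367, 437 and 429, against 478, 471 and 488 (log2 change -0.22, limma adjusted p = 0.0351). The calls of ZNF85, ZNF253 and ZNF675 were each lost when 1 library was left out, and the number of members called lower was 2 without ZC3H7A replicate 1 or any one control library. With quantile scaling 8 members were called higher and 7 lower. The 10 members that were tested and not called had log2 changes between -0.29 (ZNF66) and 1.38 (ZNF257, adjusted p = 0.0805, all 3 ZC3H7A libraries above the control).

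ZNF43 was the member that stood out with ZC3H7B, where it was nearly lost. The same comparison with ZC3H7B overexpression called 5 of the 24 members higher and 8 lower, where 54.3% of all genes tested were called, 28.9% higher and 25.4% lower. ZNF726, ZNF492, ZNF676, ZNF430 and ZNF682 rose, and ZNF43, ZNF85, ZNF826P, ZNF429, ZNF91, ZNF66, ZNF100 and ZNF675 fell. The libraries did not overlap for 13 of the 24, beside 61.1% of all genes, and a call of at least 2-fold was reached by 5, beside 7.65%. ZNF676 and ZNF826P are among the 5 and entered the fit only through the ZC3H7A libraries, so nothing is read from this count. The members' median log2 change was -0.18, beside 0.04 over all genes. With quantile scaling the split was 4 higher and 11 lower.

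ZNF43 had 4.56, 2.68 and 5.87 normalized counts with ZC3H7B, against 194, 191 and 243 in the Flag/HA control. The reads behind these values were 9 and 506, so the gene was 48.4-fold lower with ZC3H7B, with a 95% counting interval of 25.3 to 106 (log2 change -5.33, SE 0.21, limma adjusted p = 1.33e-15). The call held in all 17 alternatives that test single genes. ZNF85 had 12.2, 10.7 and 5.87 with ZC3H7B and 36.7, 22.7 and 39.0 in the control (log2 change -1.69, SE 0.39, limma adjusted p = 0.000720). The groups did not overlap, though values were low. ZNF429 had 139.9, 141 and 132, against 256, 276 and 234 in the control (log2 change -0.88, SE 0.13, limma adjusted p = 3.15e-06), close to its level with ZC3H7A. ZNF91, the repressor of SVA elements, had 452, 398 and 453, against 572, 571 and 605 (log2 change -0.42, SE 0.08, limma adjusted p = 0.000136). ZNF100 had 664, 645 and 594, against 782, 815 and 807 (log2 change -0.34, limma adjusted p = 0.000195), and ZNF675 had 374, 432 and 402, against 478, 471 and 488 (-0.25, limma adjusted p = 0.0199). In each of these every ZC3H7B library lay below every control library, but the call of ZNF675 was lost without ZC3H7B replicate 1 or control replicate 3 and in 1 fit of all libraries.

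ZNF726 showed the firmest increase with ZC3H7B, at 139.9, 127 and 142 normalized counts, against 31.6, 63.4 and 28.9 in the control (log2 change 1.79, SE 0.24, limma adjusted p = 8.15e-07). Its relative ZNF254 was not called, with 262, 241 and 245 against 248, 263 and 304 (log2 change -0.12, adjusted p = 0.301). ZNF492 had 68.4, 101 and 88.0, against 45.6, 63.4 and 32.7 in the control (log2 change 0.88, SE 0.21, limma adjusted p = 0.00126). ZNF430 had 455, 520.5 and 481, against 408, 414 and 368 (log2 change 0.29, limma adjusted p = 0.00665). In these genes every ZC3H7B library lay above every control library. ZNF676 rose to 7.60, 5.37 and 7.33, on 14 reads against 3 in the control, a ratio of 5.42 with a counting interval of 1.51 to 29.4. The calls of ZNF682 (higher) and ZNF66 (lower) were made although their libraries overlapped, and each was lost when 1 of several libraries was left out, in 1 fit of all libraries and with DESeq2. ZNF826P had 1 read with ZC3H7B and 8 in the control, a ratio of 0.145 with a counting interval of 0.00327 to 1.08 that includes no difference, and its call was lost with edgeR and DESeq2. ZNF93, the repressor of LINE-1 elements, did not pass the filter. It had 1 read with ZC3H7A, 5 with ZC3H7B and 0 in the control, where a count of 0 allows up to 3 reads. Without a filter it was called higher with ZC3H7B.

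Set directly against ZC3H7B, ZC3H7A left ZNF43 at 414 ± 16.6 normalized counts, against 4.37 ± 1.60 with ZC3H7B (SD, n = 3 each), a log2 difference of 6.32 (SE 0.21, limma adjusted p = 1.12e-16). The ratio from reads was 95.9, with a counting interval of 50.3 to 210.4. Between the overexpressing lines 11 of the 24 members were higher with ZC3H7A and 2 were lower, where 36.6% of all genes tested were called, 18.4% higher and 18.2% lower. The libraries did not overlap for 15 of the 24, beside 43.7% of all genes. ZNF676 and ZNF826P entered the fit only through the ZC3H7A libraries. Both are among the members called higher and among those that did not overlap, so nothing is read from these counts. A difference of at least 2-fold was called for 6 members, beside 3.19% of all genes, and nothing is read from this count either. They were ZNF43, ZNF826P (92 reads with ZC3H7A and 1 with ZC3H7B, a ratio of 86.0 with a counting interval of 15.1 to 3435), ZNF257 (log2 difference 2.91), ZNF676 (2.13), ZNF737 (1.85) and ZNF254 (1.29), all higher with ZC3H7A. ZNF430 and ZNF726 were lower with ZC3H7A (log2 differences -0.40 and -0.66). ZNF257 had 41.5, 34.9 and 24.8 normalized counts with ZC3H7A and 0, 4.02 and 17.6 with ZC3H7B. It spread widely among the ZC3H7B libraries, and its control values of 15.2, 8.37 and 13.8 lay within them. ZNF737 rested on 23 and 6 reads and its libraries overlapped. Its call was lost with a pseudocount of 5, without a filter, with TMM or quantile scaling and with DESeq2. Without ZC3H7A replicate 3 the members called higher were 7, since ZNF676, ZNF737 and ZNF826P then missed the filter and ZNF100 lost its call. ZNF100 also lost its call without ZC3H7B replicate 3, and ZNF726 lost its own without ZC3H7A replicate 2 or 3 or ZC3H7B replicate 1 or 3. ZNF91 stood at 661 ± 62.0 with ZC3H7A and 434 ± 31.2 with ZC3H7B (log2 difference 0.60, limma adjusted p = 2.73e-06), and ZNF85 was not called.

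Both overexpressing lines were compared with the same control libraries, so their calls are set side by side and no likeness is read from them. With ZC3H7A and ZC3H7B in that order, ZNF492 had log2 changes of 1.66 and 0.88, ZNF676 4.09 and 1.97, ZNF726 1.12 and 1.79, and ZNF682 0.47 and 0.47. Those of ZNF85 were -0.93 and -1.69, of ZNF429 -0.82 and -0.88, and of ZNF675 -0.22 and -0.25. ZNF43 and ZNF826P were called in opposite directions, higher with ZC3H7A and lower with ZC3H7B, and both were also called in the direct comparison of the lines.

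**Figure D3:**
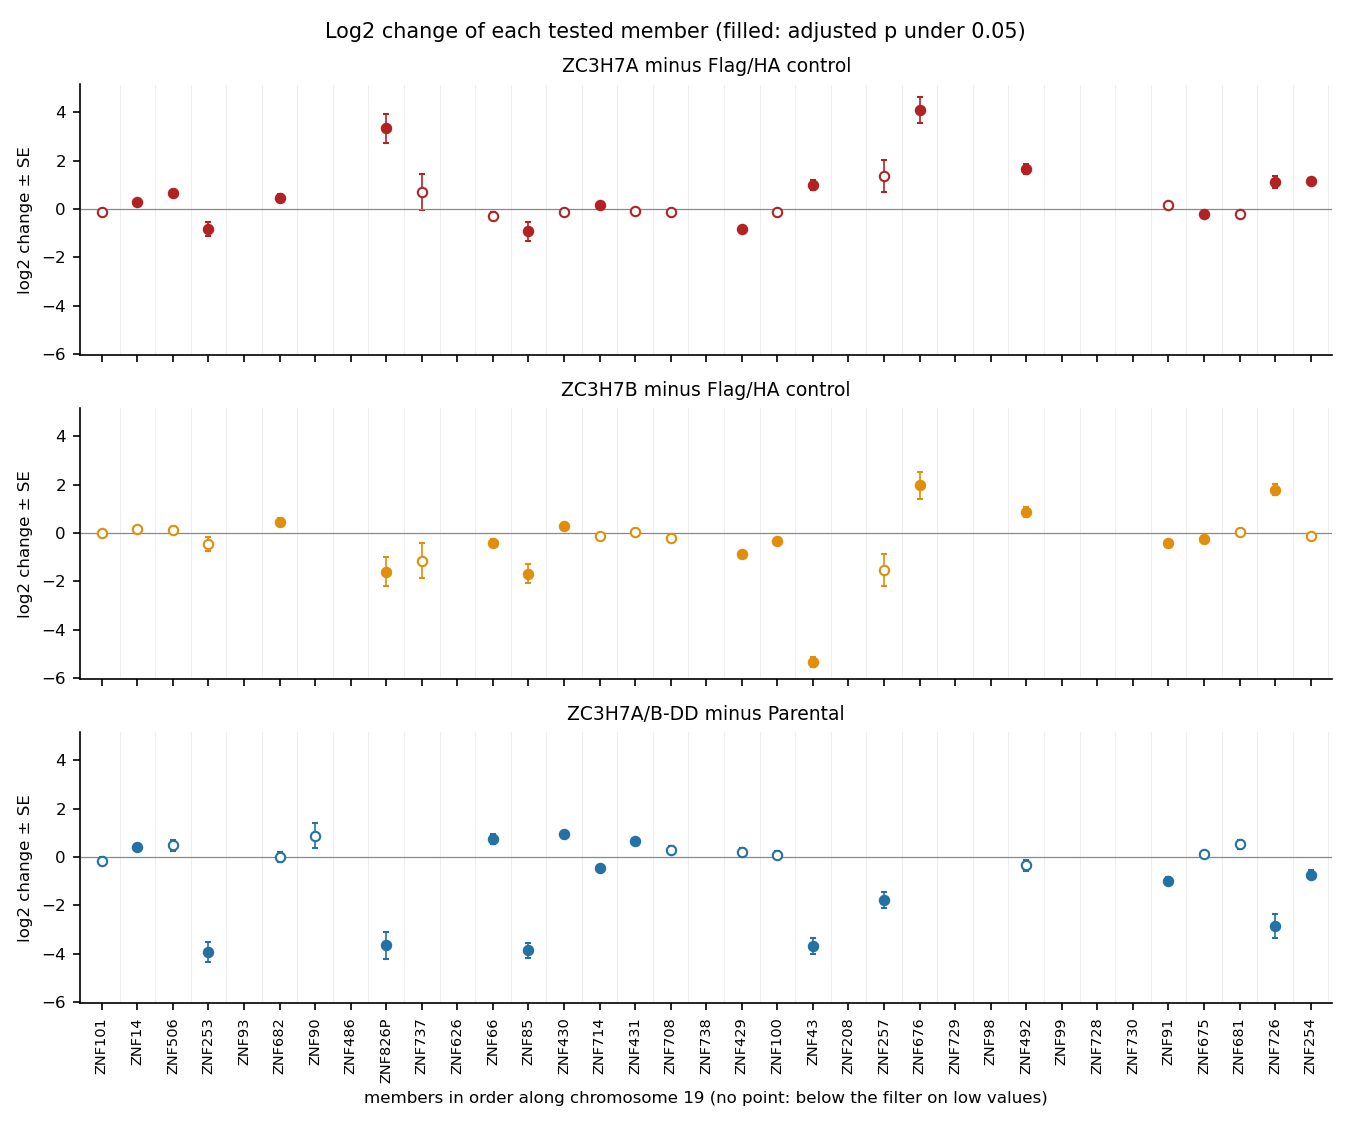
Log2 change of each tested member with its standard error, in order along chromosome 19, for ZC3H7A and ZC3H7B against the Flag/HA control and for the libraries labelled ZC3H7A/B-DD against Parental; filled points passed the limma test. Some neighbours differ in size or direction. ZNF100 and ZNF43 were both lower with ZC3H7B, by unlike amounts (-0.34 and -5.33). ZNF85 and ZNF430 point in different directions in the lowest panel (-3.86 and 0.93).

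Several members were close to absent in the libraries labelled ZC3H7A/B-DD and plainly read in Parental. ZNF253, ZNF85, ZNF43, ZNF826P, ZNF726 and ZNF257 were lower by more than 2-fold, ZNF91, ZNF254 and ZNF714 by less, and ZNF430, ZNF66, ZNF431 and ZNF14 were higher. Of 23 members that passed the filter, 4 were called higher and 9 lower, where 24.5% of all 17092 genes tested were called, 11.0% higher and 13.5% lower. The libraries did not overlap for 16 of the 23, beside 40.8% of all genes. At least 2-fold calls were made for 6 members, all lower, beside 4.94% of all genes in either direction. Of these, ZNF85, ZNF253, ZNF726 and ZNF826P passed the filter through Parental alone, so they could be tested only because they were high there. They are also among the 9 called lower and the 16 whose libraries did not overlap. Nothing is read from any of these counts or their direction. The members' median log2 change was -0.01, beside 0.02 over all genes, and other scalings put the members' median between -0.16 and 0.02.

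ZNF253 had 0.778, 3.15 and 2.10 normalized counts in the libraries labelled ZC3H7A/B-DD, against 42.1, 42.6 and 41.7 in Parental. From 5 and 142 reads it was 24.2-fold lower, with a counting interval of 10.1 to 75.7 (log2 change -3.93, SE 0.40, limma adjusted p = 0.000286). ZNF85 had 2.33, 3.15 and 3.14, against 55.8, 61.7 and 48.8 in Parental, and was 20.0-fold lower from 8 and 188 reads, with an interval of 9.96 to 47.1 (log2 change -3.86, SE 0.31, limma adjusted p = 7.10e-05). In both genes each library so labelled held no more than a few reads. ZNF43 had 17.9, 17.3 and 7.34, against 205, 175 and 169.7, and was 12.9-fold lower, with an interval of 9.41 to 18.2 (log2 change -3.69, SE 0.32, limma adjusted p = 0.000109). ZNF43 thus had its lowest means with ZC3H7B (4.37 ± 1.60) and in these libraries (14.2 ± 5.94), each set against its own control.

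ZNF726 had 6.22, 1.58 and 1.05 normalized counts in the libraries labelled ZC3H7A/B-DD, against 26.7, 22.6 and 21.3 in Parental (log2 change -2.86, SE 0.51, limma adjusted p = 0.00463). ZNF257 had 7.78, 11.0 and 5.24, against 25.1, 28.7 and 34.5 (log2 change -1.79, SE 0.34, limma adjusted p = 0.00639). ZNF826P had 2 reads there and 56 in Parental, a ratio of 0.0419 with an interval of 0.00495 to 0.159. None of these groups overlapped, but the call of ZNF826P was lost with DESeq2. ZNF91 had 139, 126 and 113, against 207, 268 and 279 in Parental (log2 change -0.98, SE 0.16, limma adjusted p = 0.00279). ZNF254 had 201, 132 and 137, against 249, 281 and 242 (log2 change -0.73, limma adjusted p = 0.0167), and ZNF714, the most read member in Parental, had 358, 306 and 299.7, against 429.8, 475 and 417 (-0.46, limma adjusted p = 0.0205). Every library so labelled lay below every Parental library in these genes. The call of ZNF254 was lost without replicate 2 or 3 of the libraries labelled ZC3H7A/B-DD or without Parental replicate 2, and that of ZNF714 without the same replicates of the libraries so labelled or without Parental replicate 1 or 2. ZNF93 had 0.778, 1.58 and 5.24 normalized counts and was not tested, with 4.05, 2.61 and 6.10 in Parental.

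ZNF430 had 369, 263 and 313 normalized counts in the libraries labelled ZC3H7A/B-DD, against 159, 148 and 187 in Parental (log2 change 0.93, SE 0.16, limma adjusted p = 0.00360). ZNF431 had 259.8, 209.5 and 228, against 155, 131 and 152 (log2 change 0.66, SE 0.14, limma adjusted p = 0.00982). ZNF66 had 94.9, 112 and 74.4, against 51.0, 51.3 and 63.0 (log2 change 0.74, limma adjusted p = 0.0292). In all 3 the groups did not overlap, but the call of ZNF66 was lost with the replicate block and without replicate 1 or 2 of either group, and that of ZNF431 without Parental replicate 2. ZNF14 had 331, 258 and 277, against 226, 210.2 and 212 (log2 change 0.41, limma adjusted p = 0.0477). This call was lost with edgeR, DESeq2, TMM scaling and the replicate block, and without a filter. It was also lost without replicate 1 or 3 of the libraries labelled ZC3H7A/B-DD and without any one Parental library. The 10 members tested and not called lay between -0.34 (ZNF492) and 0.88 (ZNF90, 16.8 ± 8.70 against 8.47 ± 4.31, adjusted p = 0.245).

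The counts of calls depended on the Parental libraries. Without Parental replicates 1, 2 and 3 the members called lower were 4, 3 and 5, and those called higher were 2, 1 and 3. ZNF85, ZNF253, ZNF726 and ZNF826P then missed the filter in each case, having only 2 Parental libraries left, and their values in the remaining libraries are those given above. Without the first library labelled ZC3H7A/B-DD 2 members were called higher. ZNF43, ZNF91 and ZNF430 were called in all 17 alternatives that test single genes.

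**Figure D4:**
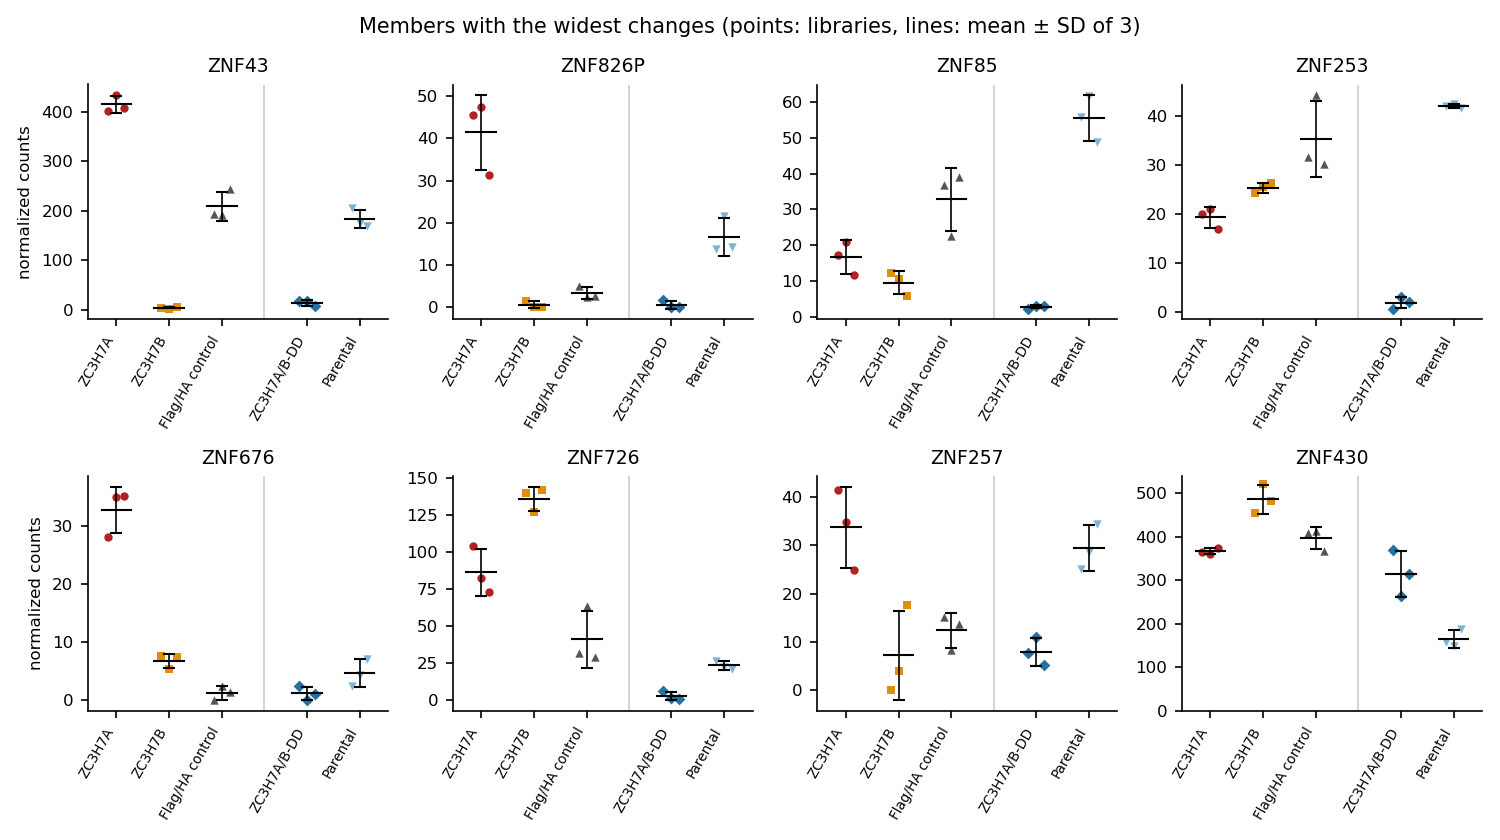
Normalized counts of 8 members in each library of the 5 groups; points are libraries and black lines the mean ± SD of 3, with the Flag/HA lines left of the grey line and the libraries labelled ZC3H7A/B-DD and Parental right of it. ZNF43 is high with ZC3H7A (414) and low with ZC3H7B (4.37), while ZNF85 and ZNF253 are near 0 in the libraries labelled ZC3H7A/B-DD.

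The libraries labelled ZC3H7A/B-DD and the overexpressing lines share no samples. Of the 9 members called lower against Parental, 4 were also lower with ZC3H7B (ZNF43, ZNF85, ZNF91 and ZNF826P), which is 44.4% of that list and 4 of the 8 lower with ZC3H7B. Of the same 9, 5 were higher with ZC3H7A (ZNF43, ZNF254, ZNF714, ZNF726 and ZNF826P), 55.6% of that list and 5 of the 10 higher with ZC3H7A. The 9 also held 2 that were lower with ZC3H7A (ZNF85 and ZNF253), 22.2% of that list. Among all tested members 33.3% were lower with ZC3H7B, and 41.7% were higher and 16.7% lower with ZC3H7A. Over all genes tested these shares were 25.4%, 29.2% and 28.2%. Nothing is read from these overlaps, and the ZC3H7B call of ZNF826P rested on 1 read against 8. ZNF85 was the only member called lower in all 3 comparisons with a control. ZNF101, ZNF681 and ZNF708 were tested in all 4 comparisons and called in none. ZNF101, the first gene of the run and the one with no 28-base stretch in any other member, had 501 ± 66.4, 541 ± 37.8 and 544 ± 45.0 normalized counts with ZC3H7A, with ZC3H7B and in the control.

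Some members next to each other on the chromosome differed in direction. They span 19668796 to 24129961 on chromosome 19 (GRCh38), 4.46 Mb from ZNF101 to ZNF254. Of 23 pairs of tested neighbours, 14 had log2 changes of the same sign with ZC3H7A and 11 with ZC3H7B, and 10 of 22 did in the libraries labelled ZC3H7A/B-DD. Signs of changes that were not called are included, and neighbours elsewhere in the genome were not counted, so nothing is read from these counts. Among the comparisons with a control, the widest gaps between neighbours were 4.99 between ZNF100 and ZNF43 with ZC3H7B, and 4.79 between ZNF85 and ZNF430 in the libraries labelled ZC3H7A/B-DD. ZNF43 (21804949 to 21852125, minus strand) lies within the run, with ZNF100 (21722766 to 21767628) on one side and ZNF208 on the other. ZNF430 (21020620 to 21060050, plus strand) follows ZNF85 (20923222 to 20950697, plus strand). The share of 28-base stretches found in other genes was weakly related to the changes across members, with Pearson correlations of 0.26, 0.14 and -0.13 over 23, 23 and 22 members with ZC3H7A, with ZC3H7B and in the libraries labelled ZC3H7A/B-DD. The points share libraries and reads.

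Other zinc finger genes of the same chromosome were mostly called higher with overexpression. Of 205 other genes named ZNF on chromosome 19, 185 were tested, and 154 were higher and 4 lower with ZC3H7A, with a median log2 change of 0.56. With ZC3H7B the counts were 154 and 6 and the median 0.53. Over all genes tested 29.2% were higher and 28.2% lower with ZC3H7A, and 28.9% and 25.4% with ZC3H7B. The members had 10 higher and 4 lower, and 5 higher and 8 lower, with medians of 0.17 and -0.18. ZNF676 and ZNF826P are in these counts and entered the fit only through the ZC3H7A libraries, so nothing is read from the members' counts. In the libraries labelled ZC3H7A/B-DD 10 of 179 other genes were higher and 17 lower, with a median of 0.05. These were 5.59% and 9.50%, beside 11.0% and 13.5% of all genes tested. The direction of these counts was the same with TMM scaling, quantile scaling, edgeR and DESeq2. The difference between the lists was not tested.

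**Figure D5:**
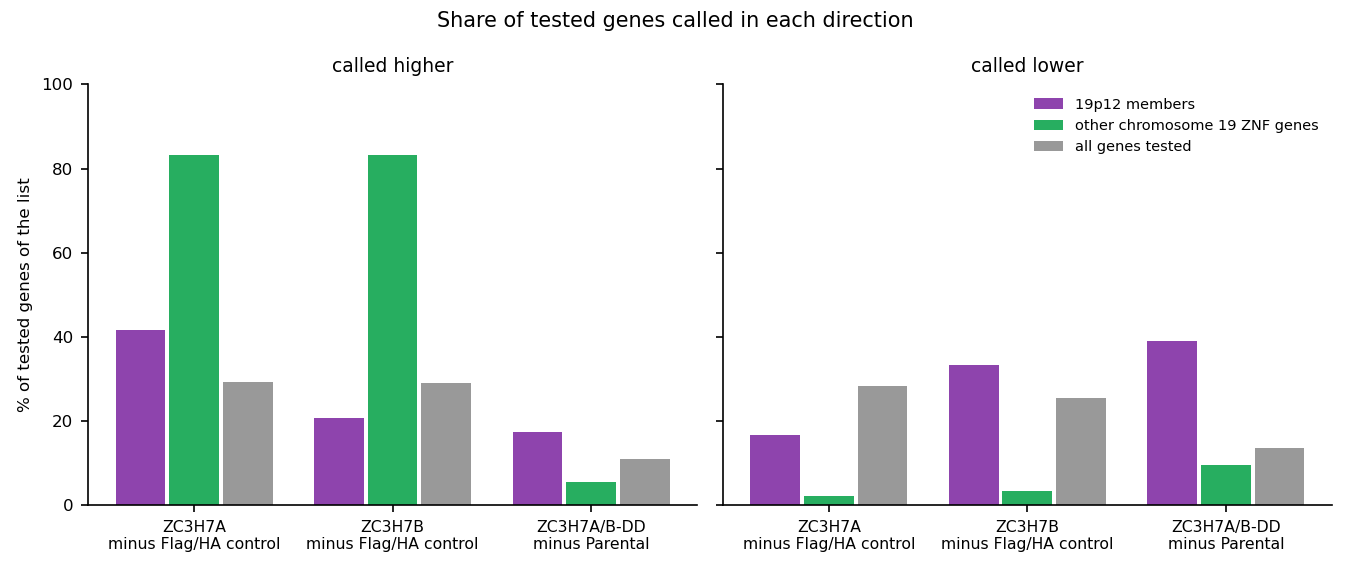
Percentage of tested genes called higher (left) and lower (right) among the 19p12 members, the other ZNF genes of chromosome 19 and all genes tested, for ZC3H7A and ZC3H7B against the Flag/HA control and for the libraries labelled ZC3H7A/B-DD against Parental. With ZC3H7A 41.7% of the tested members were higher, against 83.2% of the other ZNF genes and 29.2% of all genes. ZNF676 and ZNF826P, which passed the filter through the ZC3H7A libraries alone, are among these members, so nothing is read from their share.

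The partners through which KRAB proteins act moved in both directions. Of 28 co-repressor genes, 8 were higher and 10 lower with ZC3H7A (12 and 8 with quantile scaling). The counts were 7 and 11 with ZC3H7B (11 and 8), and 2 and 2 in the libraries labelled ZC3H7A/B-DD. In the main fit the share called higher did not exceed that of all genes tested in any of these comparisons. The share called lower was 35.7% with ZC3H7A, beside 28.2% of all genes, and 39.3% with ZC3H7B, beside 25.4%. In the libraries labelled ZC3H7A/B-DD it was 7.14%, beside 13.5%. These differences were not tested. TRIM28, the scaffold, stood at 33304 ± 1296 normalized counts with ZC3H7A, 32772 ± 1533 with ZC3H7B and 21526 ± 656 in the Flag/HA control (log2 changes 0.63 and 0.61, limma adjusted p = 1.12e-10 and 2.21e-10). MORC2, a chromatin compactor of the HUSH pathway, was higher in both lines (log2 changes 0.49 with ZC3H7A and 0.40 with ZC3H7B), as was DNMT1, the maintenance DNA methyltransferase (0.34 and 0.57). CBX5, a heterochromatin protein, was lower in both lines (-0.49 and -0.55), as were the deacetylase HDAC2 (-0.44 and -0.34) and the remodeller ATRX (-0.23 and -0.53). SETDB1 was not called in any comparison, with log2 changes of -0.01 with ZC3H7A, 0.01 with ZC3H7B and 0.29 in the libraries labelled ZC3H7A/B-DD (adjusted p = 0.0855). In those libraries KDM1A, a histone demethylase, and DNMT3B, a DNA methyltransferase, were lower (-0.46 and -0.71), and ATRX and UHRF1, which reads methylated DNA, were higher (0.92 and 1.07). Parental spread widely for most of them: KDM1A stood there at 15296 ± 1790.1 normalized counts, DNMT3B at 1250.4 ± 352, ATRX at 4118 ± 1817 and UHRF1 at 217 ± 96.5. Results without Parental replicate 3 are not given for these genes.

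Codons of the members end in A or T more often than in most genes. The share was 66.5% at the median over 34 members, between 49.3% in ZNF738 and 69.9% in ZNF85, beside 40.9% over the 12858 genes tested in the Flag/HA libraries with a coding sequence. Other genes within the middle range of the members (64.2% to 67.3%) were mostly lower with overexpression. Of 666, 19.5% were higher and 55.0% lower with ZC3H7A, and 17.6% and 55.3% with ZC3H7B. Over all genes tested these shares were 29.2% and 28.2% with ZC3H7A, and 28.9% and 25.4% with ZC3H7B. In the libraries labelled ZC3H7A/B-DD 20.5% of 516 such genes (64.8% to 67.4%) were higher and 8.91% lower, beside 11.0% and 13.5% of all genes tested. Of the tested members 41.7% were higher and 16.7% lower with ZC3H7A, and 20.8% and 33.3% with ZC3H7B. ZNF676 and ZNF826P are among them and entered the fit only through the ZC3H7A libraries. Nothing is therefore read from the members' percentages, and the difference was not tested. Across the 23 tested members with a coding sequence the codon share had Pearson correlations of -0.31 and -0.16 with the log2 changes. Both are weak, and the codon share of these members spans only 61.1% to 69.9%.

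The promoter stretch printed in capitals was found in each class of call. In the libraries labelled ZC3H7A/B-DD it stood in 4 of the 7 members called lower that have a promoter entry, in 2 of the 4 called higher and in 4 of the 9 not called. With ZC3H7B it stood in 4 of 7 called lower, 2 of 4 called higher and 4 of 9 not called. The dinucleotide CG occurred 10.0 times at the median in the members' promoters, between 8 in ZNF626 and 18 in ZNF101, beside 16 over the promoters of 27305 genes.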

How the data were processed

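Ribosome footprints of 15 HEK293 libraries were taken from a deposited table of normalized counts, a signal that the authors made by dividing reads per gene by a size factor. The submitters' processing notes name DESeq2, HTSeq, STAR, Bowtie and cutadapt, and as builds hg19 and hg38; their versions and roles, and the footprint lengths kept, are not given there. Values were whole multiples of 1 step in each library, so reads were recovered (100% whole within 0.001 reads) and used for counting intervals (exact, 95%), floors of 3 counts over a group and alternatives. These cover counting error only, as no molecular identifiers are named. The table has 28 names that are dates or duplicates, with 0.173% to 0.285% of reads, which were not used as named genes.

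Genes at 10 or more in at least 3 fitted libraries entered lmFit and eBayes (with trend) of limma 3.58.1, run in R 4.3.3, on log2(value + 1), a scale that understates the change of low genes, with Benjamini-Hochberg adjustment over all genes tested. The 9 Flag/HA libraries shared 1 fit, and the other 6, lysed and prepared by other protocols, were fitted apart. The step was tested on simulated data. Alternatives were other pseudocounts, filters and scalings, array weights, 1 fit of all libraries, a replicate block, each library left out, summed alike members (at least 80% identical), edgeR 4.0.16 and DESeq2 1.42.0. Members and lists were chosen with earlier results of these data known. Values per library are given, in each comparison with a control, for up to 8 called members per direction whose libraries do not overlap and whose mean reaches 20 in either group, and for ZNF43, ZNF85, ZNF91 and ZNF93. Over all genes the chi-square of replicate pairs per degree of freedom, which is 1 for counting noise alone, was 1.62 to 5.59 with Flag/HA and 7.63 to 74.8 elsewhere, highest in pairs with Parental replicate 3. Coding sequences (the longest per gene, GENCODE 29) were compared with Biopython 1.88 and promoters were from RefSeq; the genome build of the counting may differ. The blood marker list as a whole is not reported here.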

Additional observations from a re-analysis of the deposited data

How the results depend on the processing

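No named log2 change that was called in the main fit or in an alternative changed its sign. A change of sign without a call in either fit was counted as unchanged. With ZC3H7A and ZC3H7B counted beside the named members, 1388 recomputed values stayed on their side of the threshold, 90 lost their call and 24 gained one. Counts of members called moved as follows. With ZC3H7A the 4 members lower became 1 without a filter, 7 with quantile scaling and 1 with DESeq2. With ZC3H7B the 5 members higher became 3 in 1 fit of all libraries and 3 with alike members summed. Between the overexpressing lines the 2 members lower became 1 with array weights, 1 in 1 fit of all libraries and 0 in limma with alike members summed, where 1 was lower at an unadjusted p under 0.05 and edgeR and DESeq2 on single genes called 2. Leaving out 1 library at a time gave 7 to 9 members higher and 2 to 4 lower with ZC3H7A, 4 to 5 and 6 to 8 with ZC3H7B, 7 to 10 and 1 to 2 between the lines, and 1 to 3 and 3 to 9 in the libraries labelled ZC3H7A/B-DD. Fewer members pass the filter there. With the replicate block 2 members were called higher in the libraries labelled ZC3H7A/B-DD instead of 4, and no other count moved by over 1.5 times. Same-numbered libraries did not deviate together (correlations between -0.10 and 0.040; 2 to 4 of 6 libraries were closest to their own number), so the numbers pair nothing. The cause of these shifts was not tested. Depth limits what can be said of members with a few reads: at 0 reads a group allows up to 3 counts.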
